A study of Mus musculus with 41 samples.

Results

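Cox7a2l and 5 transcripts annotated as pseudogenes (Ppp4r1l-ps, Gm6969, Gm7993, Rps7-ps3 and Gm10557) were followed through 41 RNA-seq libraries of whole mouse endometriosis lesions. These 6 of the 21249 genes in the deposited count table were chosen because earlier results from the same table showed their levels to differ between mouse genotypes and to be intermediate in lesions transferred across genotypes. Their differences between genotypes are therefore given as a description, with no test. Tests on them were limited to treatments compared within 1 genotype and to the difference of 1 such treatment effect between 2 genotypes.

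Lesions were made by gluing a 4 mm uterine punch to the peritoneal wall of recipients aged 12 to 16 weeks, and 3 injections of 1 µg IL-33 or of PBS followed from day 7. Mice labelled C57Bl/6J, Nmur1iCre-eGFP (Cre control, with no floxed allele named) and Id2fl/fl (floxed control, with no Cre) were the ILC2-competent genotypes, and Nmur1iCre-eGFP Id2fl/fl mice were ILC2-deficient. In the last genotype Cre is driven from Nmur1, a receptor gene used as a marker of group 2 innate lymphoid cells (ILC2s), and floxed Id2 encodes a transcriptional regulator that these cells need. Every group received IL-33 except 1 deficient group given PBS. With IL-33 alone there were 4 C57Bl/6J, 4 Cre-control, 4 floxed-control and 4 deficient libraries, and 4 more deficient libraries had PBS added to IL-33. Transferred ILC2s had been given as 120000 cells to 3 C57Bl/6J and 2 deficient lesions, and as 250000 cells to 4 deficient lesions. In 2 further IL-33 groups of 4, Cre-control fragments were placed in deficient recipients and deficient fragments in Cre-control recipients. The fragment and the recipient of all other lesions were taken to share a genotype, and the labels do not say whether replicates came from separate animals, so the spread between libraries may be partly technical. No source used here gives the genetic background of the Cre and floxed lines.

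COX7A2L, also called SCAF1, joins respiratory complexes III and IV of mitochondria into a supercomplex. Laboratory mouse strains differ in this gene: C57BL/6 mice carry a short form that lacks 6 coding bases present in the long form of other strains. A processed pseudogene is a DNA copy of a spliced messenger RNA inserted elsewhere in the genome, and an unprocessed pseudogene is a decayed copy of a gene that keeps its introns. Reads that match a gene and its near copy equally well can be split between them or dropped in counting. Every count below for a near copy or its relative is therefore uncertain.

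In GRCm38 with the GENCODE M21 annotation, Cox7a2l (ENSMUSG00000024248.14) is a protein-coding gene at chr17:83501918-83517330 on the minus strand. Gm6969 (ENSMUSG00000066553.5) is a processed pseudogene of 342 bases at chr12:24638669-24639010, also on the minus strand, and lies 0.45 Mb from Id2 (chr12:25093799-25097140). Its letters match the Cox7a2l coding sequence over its whole length. The alignment has 342 columns, of which 334 (97.66%) are identical. The last 186 bases of the Cox7a2l coding sequence and the last 192 of Gm6969 are shown because the copy carries 6 bases that the reference Cox7a2l lacks. Capitals mark the bases that differ, and all bases before these stretches are identical.

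Cox7a2l: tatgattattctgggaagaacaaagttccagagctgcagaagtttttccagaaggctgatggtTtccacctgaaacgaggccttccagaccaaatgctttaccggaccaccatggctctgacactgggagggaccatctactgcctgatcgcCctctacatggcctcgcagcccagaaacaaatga

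Gm6969: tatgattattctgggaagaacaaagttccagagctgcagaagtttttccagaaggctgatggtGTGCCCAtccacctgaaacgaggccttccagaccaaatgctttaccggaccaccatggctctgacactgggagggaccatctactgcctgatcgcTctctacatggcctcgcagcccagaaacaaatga

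Counted from 1 at the start codon, the 6 extra bases occupy positions 214 to 219 of Gm6969 and follow base 213 of Cox7a2l. In this alignment the only other differences were the substitutions T214A and C303T, written with the Cox7a2l base and position first. A read that spans the 6 bases matches the pseudogene and not the reference Cox7a2l, so the gene counts cannot tell which of the 2 loci it came from. The part this plays in the counts was not tested, since no reads were analysed here.

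Gm7993 (ENSMUSG00000107092.1, chr5:95974240-95975623, plus strand) is a processed pseudogene whose best coding match is Odc1, the first enzyme of polyamine synthesis, at 95.75% identity over 1388 bases. Rps7-ps3 (ENSMUSG00000095597.2, chrX:152909505-152910155, minus strand, named Gm6472 in M21) is a transcribed processed pseudogene and matches Rps7, a protein of the small ribosomal subunit, at 99.48% over 582 bases. Both parents lie on the chromosome of Id2: Odc1 (chr12:17544794-17551505) is 7.54 Mb and Rps7 (chr12:28630854-28635953) is 3.53 Mb from it. Gm10557 (ENSMUSG00000073647.4, chr18:4198320-4198938, minus strand) is a processed pseudogene with 7 close relatives, all on chromosome 8, the best being 6820431F20Rik and 2610005L07Rik, both at 99.67%, and the best coding one Cdh11 at 96.27% over 589 bases. Ppp4r1l-ps (ENSMUSG00000055897.13, chr2:173579320-173659640, minus strand) is a transcribed unprocessed pseudogene for which no coding transcript aligned on the same strand.

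Libraries held 28884926 to 70526624 counts. Levels are in CPM, each count scaled to the same library total, after library sizes were adjusted by the trimmed mean of M-values. Id2 is deleted only in cells that express Nmur1, and in whole lesions its mean level was 44.2 ± 13.1 CPM (SD, n = 4) in Cre controls and 48.1 ± 8.51 (n = 4) in deficient lesions. The 6 ILC2 markers (Il5, Il13, Gata3, Il1rl1, Nmur1, Il9r) summed to 32.9 to 127 CPM in Cre controls, 21 to 34.8 in floxed controls and 10.7 to 18 in deficient lesions. Endometrial stroma markers were present in every library (761 to 2340 CPM over 7 genes), while skeletal muscle markers ran from 36.4 to 47338 CPM. Liver Alb exceeded 1000 CPM in 4 libraries, namely replicate 4 of C57Bl/6J, replicate 3 of C57Bl/6J with ILC2s, replicate 3 of the Cre controls and replicate 2 of the deficient IL-33 lesions.

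Cox7a2l was highest in genotypes without a floxed allele, lower in floxed controls and lowest in ILC2-deficient lesions. The 4 Cre controls measured 74.9, 77.6, 71.5 and 83.9 CPM, and the 4 C57Bl/6J lesions 67.0, 65.5, 66.5 and 77.8. The 4 floxed controls measured 54.2, 66.9, 51.3 and 52.6 CPM. The 4 deficient IL-33 lesions measured 41.5, 35.4, 43.9 and 43.1 CPM. The Cre-control, floxed and deficient values did not overlap, and the highest floxed library lay within the C57Bl/6J range. The deficient mean was 0.532 times the Cre-control mean and 0.729 times the floxed mean. In edgeR's fit the difference between deficient and Cre-control lesions was -0.91 ± 0.10 (log2, SE), and that between deficient and floxed lesions was -0.46 ± 0.10. Among all genes, 11.7% did not overlap between these 4 deficient and 4 Cre-control libraries, and 17.1% between the deficient and floxed libraries, so a lack of overlap between 2 groups of 4 is common in this table. Between Cre-control and floxed libraries, where 5 of the 6 did not overlap, the share of all genes was 9.52%. Between C57Bl/6J and Cre-control libraries, where only Ppp4r1l-ps did not overlap, it was 7.9%.

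The other deficient groups lay at the same level as the first. Cox7a2l averaged 39.1 ± 1.38 CPM (SD, n = 4) with added PBS, 43.3 ± 1.28 (n = 2) with 120000 ILC2s, 42.7 ± 8.06 (n = 4) with 250000 ILC2s and 39.5 ± 2.90 (n = 4) with PBS in place of IL-33. One library with 250000 ILC2s, replicate 3 at 54.5 CPM, stood above the other deficient libraries, which lay between 35.4 and 44.2. C57Bl/6J lesions with ILC2s averaged 69.1 ± 9.61 CPM (n = 3). In the order of the 11 group means, all neighbours overlapped but 1 pair: Cre-control fragments in deficient recipients (mean 49.0 CPM) lay wholly above deficient lesions with 120000 ILC2s.

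Gm6969, the near copy of Cox7a2l, was low in every non-transferred lesion without the floxed allele and high in floxed and deficient lesions. Cre controls measured 0.737, 0.667, 1.74 and 1.10 CPM, and C57Bl/6J lesions 1.37, 1.5, 1.31 and 1.64. Floxed controls measured 21.2, 23.3, 21.5 and 25.9 CPM, and deficient IL-33 lesions 18.2, 18, 20.8 and 22.7. These groups split into a low and a high set with no library between them. The floxed mean was 21.6 times and the deficient mean 18.8 times the Cre-control mean. The remaining deficient groups averaged 18.3 to 21.2 CPM. Per kilobase of exon, Gm6969 in deficient lesions (58.3 ± 6.70 CPM per kb, SD, n = 4) stood above Cox7a2l (27.7 ± 2.62), whereas in Cre controls it stood far below it (3.11 ± 1.44 against 52.1 ± 3.54).

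**Figure D1:**
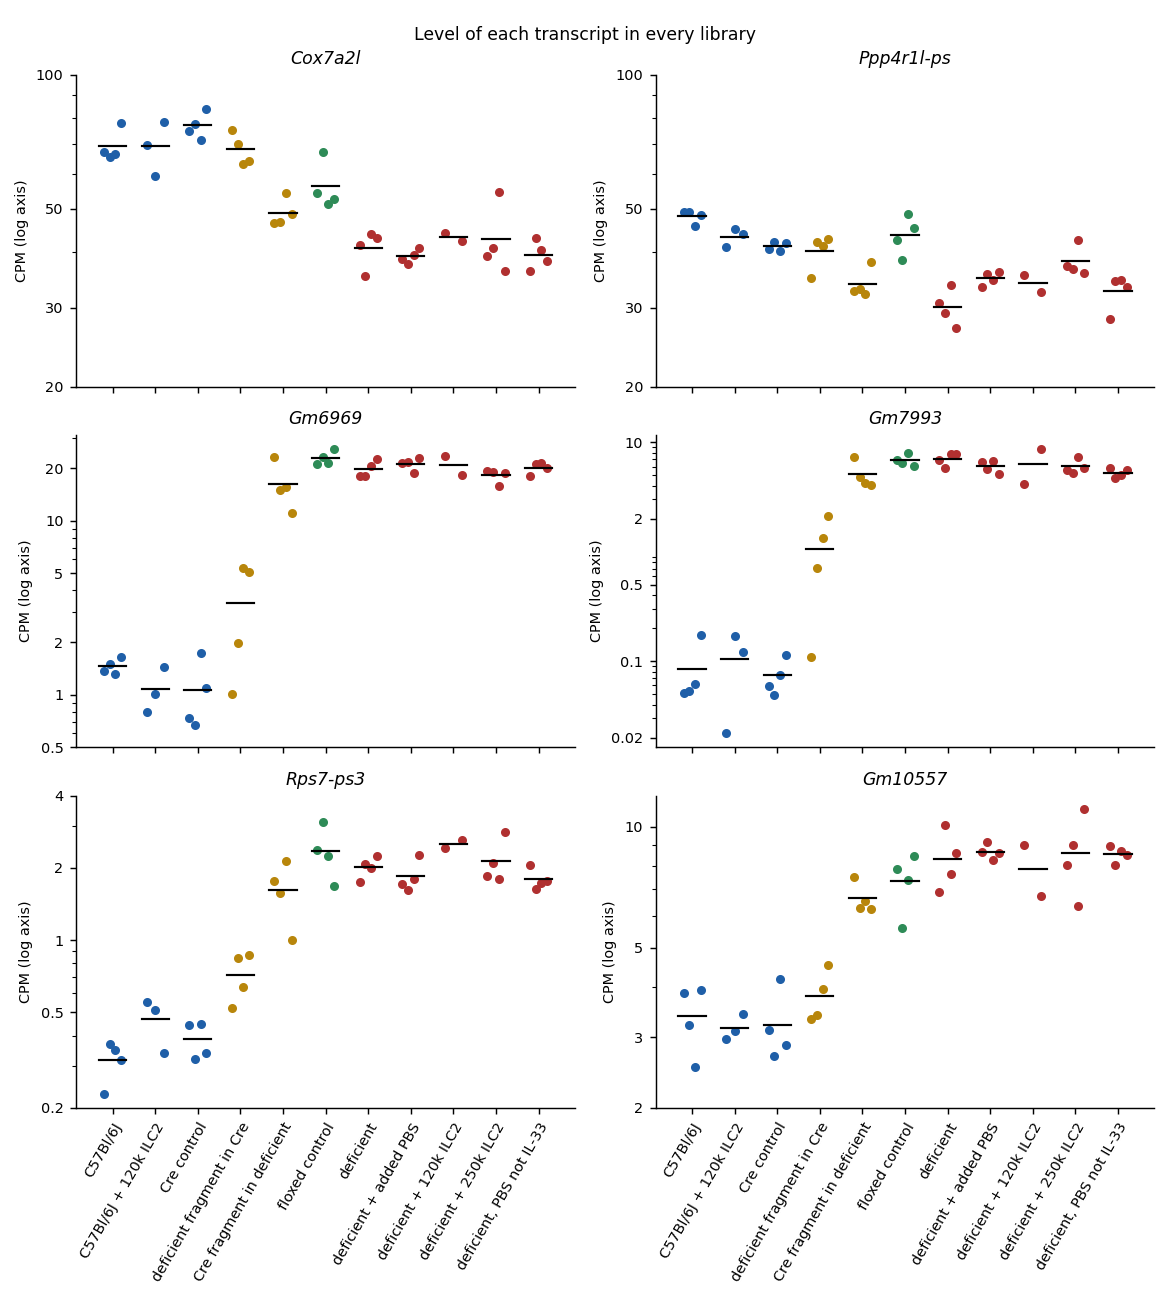
Level of the 6 transcripts in each of 41 libraries (points, CPM on a log axis) by group, with the group mean as a black line, blue for genotypes without floxed Id2, green for floxed controls, red for ILC2-deficient and gold for transferred lesions. In the 4 lower panels every red and green point lies above every blue point, while Cox7a2l falls in steps from blue to green to red and Ppp4r1l-ps stays high in floxed controls.

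Adding the near copy to Cox7a2l changed the order of the genotypes. The summed level was 78 ± 5.07 CPM (SD, n = 4) in Cre controls and 79.2 ± 7.70 (n = 4) in floxed controls, and it was 70.6 ± 5.88 (n = 4) in C57Bl/6J lesions. In deficient IL-33 lesions the sum was 60.9 ± 5.73 CPM (n = 4), and the other 4 deficient groups averaged 59.8 to 64.3. Floxed and Cre-control sums overlapped (72.8 to 90.2 and 73.2 to 85.0 CPM), and the deficient IL-33 sums of 53.3 to 65.8 lay below both. Summed this way, floxed and Cre-control lesions overlapped, while deficient IL-33 lesions stood at 0.781 times the Cre-control and 0.769 times the floxed mean. The sums of C57Bl/6J lesions with ILC2s ran from 60.3 to 79.9 CPM (n = 3) and overlapped those of deficient IL-33 lesions. Deficient lesions with ILC2s reached 67.7 CPM at the lower dose and 70.4 at the higher. C57Bl/6J lesions with IL-33 alone began at 67.0 CPM. The sum therefore did not separate deficient lesions from all lesions without the floxed allele. Gm6969 supplied 0.853 to 2.38% of the summed counts in Cre controls, 25.9 to 33.0% in floxed controls and 30.4 to 34.5% in deficient IL-33 lesions.

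**Figure D2:**
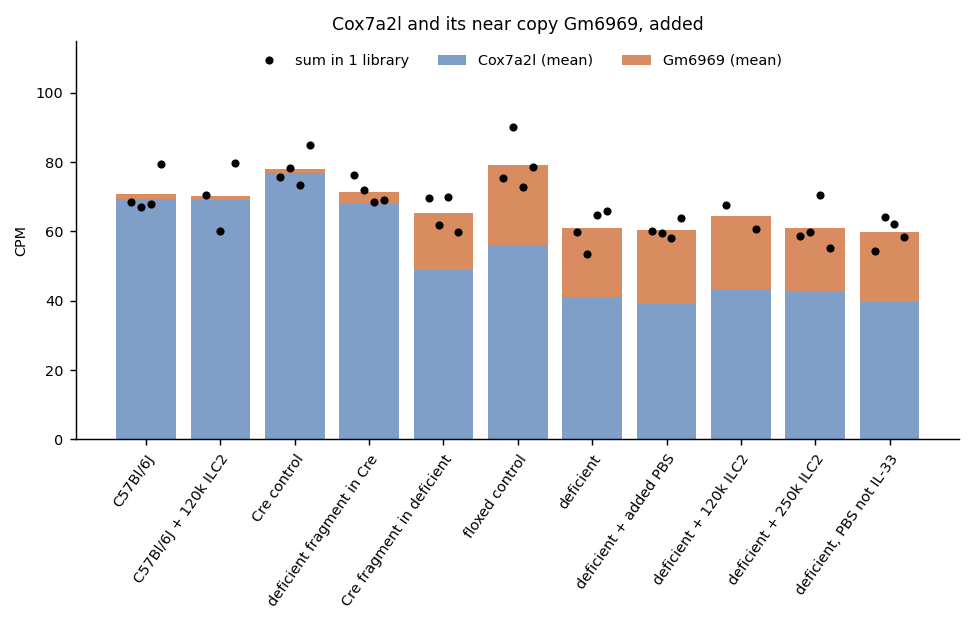
Mean CPM of Cox7a2l (blue) and Gm6969 (orange) stacked for each of 11 groups, with the sum in each library as a black point. The stacked means of Cre controls (78) and floxed controls (79.2) are level, and the 5 deficient groups sit between 59.8 and 64.3.

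Gm7993, the Odc1 copy, split the genotypes most widely of the 6. Cre controls measured 0.0589, 0.0494, 0.0746 and 0.113 CPM, which is 12 counts over 4 libraries. Floxed controls measured 6.93, 6.45, 7.96 and 6.03 CPM, and deficient IL-33 lesions 6.93, 5.79, 7.74 and 7.77. The floxed and deficient values overlapped, and both stood about 90-fold above the Cre controls (92.6 and 95.5 times), a ratio whose base is a handful of reads. Odc1 itself averaged 59.9 ± 6.37 CPM in Cre controls, 48.8 ± 5.08 in floxed controls and 54 ± 7.58 in the deficient IL-33 group (SD, 4 libraries each). With Gm7993 added, the 3 means were 59.9, 55.7 and 61.1 CPM.

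Among lesions that were not transferred, Rps7-ps3 was also higher wherever the floxed allele was present. Cre controls measured 0.442, 0.321, 0.448 and 0.338 CPM, floxed controls 2.38, 3.11, 2.25 and 1.68, and deficient IL-33 lesions 1.75, 2.08, 2.00 and 2.24. The deficient mean was 5.21 times and the floxed mean 6.08 times the Cre-control mean. Its parent Rps7 moved the other way: it averaged 116 ± 3.90 CPM in Cre controls, 57.8 ± 5.87 in floxed controls and 63.6 ± 11.9 in the deficient IL-33 group (SD, 4 libraries each). Rps7 was not among the 6 chosen transcripts, and the quasi-likelihood test of edgeR, adjusted over all genes by the Benjamini-Hochberg method, called it lower in deficient than in Cre-control lesions (log2 -0.87 ± 0.16, SE, adjusted p = 0.00138). It was higher in Cre-control than in floxed lesions (log2 1.01 ± 0.16, adjusted p = 0.000283). The fall of Rps7 was far larger in CPM than the rise of Rps7-ps3, so the summed level was still 0.562 times the Cre-control value in deficient lesions.

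Gm10557 was raised by a smaller factor. Cre controls measured 3.12, 2.69, 4.18 and 2.86 CPM, floxed controls 7.87, 5.60, 7.38 and 8.46, and deficient IL-33 lesions 6.89, 10.1, 7.63 and 8.62. The deficient mean was 2.59 times and the floxed mean 2.28 times the Cre-control mean, with overlap between floxed and deficient libraries and none with the Cre controls. Ppp4r1l-ps followed another pattern. Cre controls measured 40.6, 42.2, 40.3 and 42 CPM, floxed controls 42.7, 38.4, 48.6 and 45.3, and deficient IL-33 lesions 30.8, 29.2, 33.8 and 27.1. It was thus low in deficient lesions (0.732 times the Cre-control mean) and not in floxed ones, and C57Bl/6J lesions were the highest at 48.2 ± 1.53 CPM (SD, n = 4).

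Across the 33 libraries that were not transferred, 22 carried the floxed allele and 11 did not. In this split 43 genes (0.202% of 21249) did not overlap, among them Gm6969, Gm7993, Rps7-ps3 and Gm10557. Without the 4 libraries with liver transcripts the number was 64 (0.301%), again with these 4. Cox7a2l and Ppp4r1l-ps overlapped: replicate 2 of the floxed controls had 66.9 CPM of Cox7a2l and replicate 2 of C57Bl/6J with ILC2s had 59.2. Since the 6 were chosen for separation of genotypes in these libraries, these counts describe the choice.

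Whether chromosomal position played a part in the choice of the 6 transcripts is not stated in the sources used here. Of the 43 genes, 22 were on chromosome 12, which holds 4.2% of the 20985 genes that could be placed, 20 were on other chromosomes and 1 was not placed. Within 10 Mb of Id2, 17 of 117 measured genes (14.5%) did not overlap, Gm6969 and Rps7 among them. Elsewhere on chromosome 12 it was 5 of 765 (0.654%), and on all other chromosomes 20 of 20103 (0.0995%). The 10 Mb window was chosen after the positions were seen. Both directions occurred there, as with Cdhr3 (-3.44, difference of mean log2 CPM) and Gm48643 (4.37).

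**Figure D3:**
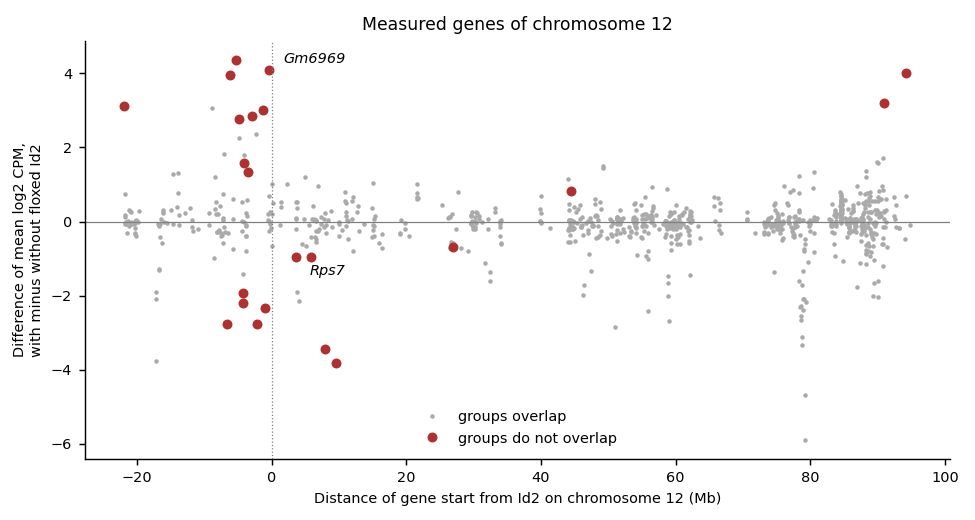
Each measured gene of chromosome 12 by the distance of its start from that of Id2 (Mb) and its difference of mean log2 CPM, 22 libraries with floxed Id2 minus 11 without. Red points are the 22 genes whose libraries do not overlap, and 17 of them lie within 10 Mb of Id2.

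Genes next to the 6 transcripts were tested as a list of 89 measured within 1 Mb. Between deficient and Cre-control lesions 1 rose and 2 fell, against 3.83% of all genes called (1.63% higher and 2.2% lower). Beside Gm6969 there were 2 calls: Gm38699 rose (log2 2.73 ± 0.45, adjusted p = 0.00061) and 9030624G23Rik fell (log2 -2.89 ± 0.47, adjusted p = 0.000402, edgeR). The third was Ctsz, a lysosomal cathepsin gene near Ppp4r1l-ps (log2 -0.80 ± 0.24, adjusted p = 0.0489). The call of Gm38699 was lost in 1 of 14 alternatives, with only the groups compared. That of Ctsz was not followed through the alternatives. Between deficient and floxed lesions 2 rose and 4 fell (4.69% of all genes higher and 3.86% lower), and between Cre-control and floxed lesions 1 rose and 0 fell (0.179% higher and 0.151% lower). Against floxed lesions Rrm2, a ribonucleotide reductase subunit, and Mtpap rose in deficient lesions, and Klf11, Gm26035, Iqsec2 and Npepl1 fell. The call of Rrm2 (log2 0.99 ± 0.29, adjusted p = 0.0318) was lost in 9 of 14 alternatives, among them the removal of any 1 floxed library, of deficient replicate 1, 2 or 4, or of the libraries with liver transcripts. The 1 gene higher in Cre-control than in floxed lesions was 9030624G23Rik (log2 2.64 ± 0.46, adjusted p = 0.00155). That call was lost in 1 of 14 alternatives, with only the groups compared. Between C57Bl/6J and Cre-control lesions 0 of 89 were called (0.0376% of all genes, 0.0235% lower). The nearest genes of Gm6969 on each side were Klf11, a Kruppel-like transcription factor 12.3 kb away, and Grhl1, 21.3 kb away, at log2 -0.42 ± 0.16 (adjusted p = 0.121) and 0.15 ± 0.29 (adjusted p = 0.832) between deficient and Cre-control lesions. Klf11 was lower in deficient than in floxed lesions, at 24.6 ± 3.91 against 40.5 ± 7.89 CPM (SD, 4 libraries each, log2 -0.72 ± 0.16, SE, adjusted p = 0.00702 by edgeR), a call lost in 1 of 14 alternatives, with only the groups compared. None of the 8 neighbours of Cox7a2l was called in any of the 6 genotype contrasts, which called from 0.00471 to 11.3% of all genes. At such shares a count of 0 among 8 genes is no departure from the rest of the table. The nearest, Eml4 at 21.6 kb and Kcng3 at 68.6 kb, differed between deficient and Cre-control lesions by log2 0.27 ± 0.19 (adjusted p = 0.449) and -1.13 ± 0.55 (adjusted p = 0.244). Rab22a, a small GTPase gene that lies 0.1 kb from Ppp4r1l-ps, differed by log2 0.07 ± 0.08 (adjusted p = 0.659). The other nearest genes, Pmepa1, Cxcl13, Cnot6l, Shroom2, Gm26035, Bambi and Map3k8, lay between log2 -1.08 (Gm26035, adjusted p = 0.162) and 0.66 (Cxcl13, adjusted p = 0.692), and none was called there.

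Sequence relatives of the 6 were listed by identity of at least 90% over at least 80% of the member, and 13 of them were in the count table. Between deficient and Cre-control lesions 3 rose and 2 fell (3.83% of all genes called), and between Cre-control and floxed lesions Rps7 and Gm21092 were higher in Cre controls and 2610005L07Rik and Gm9260 lower (0.329% called). The chromosome 8 relatives of Gm10557 went in both directions. 2610005L07Rik rose in deficient over Cre-control lesions (log2 0.80 ± 0.11, adjusted p = 5.85e-05), as did 6820431F20Rik (log2 0.61 ± 0.15, adjusted p = 0.0213), while Gm21092 fell (log2 -1.33 ± 0.25, adjusted p = 0.0019). Their coding relative Cdh11, a cadherin of mesenchymal cells, was not called there (log2 0.57 ± 0.30, adjusted p = 0.294) and was higher in deficient than in floxed lesions (log2 1.13 ± 0.30, adjusted p = 0.0199). Gm9260, an Odc1 copy on chromosome 12, rose with log2 3.62 ± 0.54 (adjusted p = 0.000119), from 0.0428 to 0.568 CPM. The call for 6820431F20Rik was lost in 5 of 14 alternatives: without the libraries with liver transcripts, without Cre-control replicate 2 or deficient replicate 2 or 4, and with only the groups compared. That for Cdh11 was lost in 4 of 14: without deficient replicate 4 or floxed replicate 2 or 3, and with only the groups compared. With only the groups compared, the calls of Gm21092 and Gm9260 between deficient and Cre-control lesions were also lost. So was that of Gm9260 between Cre-control and floxed lesions.

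Of 27 genes for subunits and associated proteins (such as Cox4i1, Cox7a2, Uqcrc2 and Cyc1), 0 were called by edgeR between deficient and Cre-control lesions (3.83% of all genes called), where 0 had an unadjusted p under 0.05 and DESeq2 called 0. The largest rises were those of Cox7a1 (log2 1.03 ± 0.96, adjusted p = 0.608) and Cycs (0.56 ± 0.35, adjusted p = 0.4), and the largest falls those of Cox6a1 (-0.33 ± 0.26, adjusted p = 0.539) and Uqcrq (-0.32 ± 0.36, adjusted p = 0.693). The median log2 difference of the 27 was 0.14, beside -0.02 over all genes. Between deficient and floxed lesions 0 of 27 were called (8.55% of all genes), 3 had an unadjusted p under 0.05, DESeq2 called 0, and the median was -0.25 beside 0.01. Between Cre-control and floxed lesions 0 were called (0.329% of all genes), 4 had an unadjusted p under 0.05, DESeq2 called 0, and the median was -0.39 beside 0.03. Several of these genes have isoforms of skeletal muscle, and the summed level of 7 skeletal muscle markers ranged from 58.1 to 18035 CPM in Cre controls, 20239 to 32255 in floxed controls and 2934 to 29820 in deficient lesions. Its part in these medians was not tested.

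Genes known to vary between laboratory strains were read as a list of 14, of which 11 were in the table. Between deficient and Cre-control lesions 1 rose and 0 fell (3.83% of all genes called). It was Wdfy1, which encodes an endosomal adaptor (log2 0.61 ± 0.11, adjusted p = 0.00161). This call was lost in 1 of 14 alternatives, with only the groups compared. The median of the 11 was 0.06 beside -0.02 over all genes. Nnt, the mitochondrial transhydrogenase whose gene is disrupted in C57BL/6J mice, differed by log2 0.06 ± 0.17 (adjusted p = 0.894). Between deficient and floxed lesions 0 of the 11 were called (8.55% of all genes). The same held between Cre-control and floxed lesions (0.329%) and between C57Bl/6J and Cre-control lesions (0.0376%).

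In the transferred lesions the fragment and the recipient differed in genotype. When the transferred lesions were counted with their recipient's genotype, 17 genes (0.08% of all) did not overlap between 26 and 15 libraries, and the same 4 transcripts (Gm6969, Gm7993, Rps7-ps3 and Gm10557) were among them. Counted by fragment genotype, 0 genes (0%) were separated. Intermediate levels in transferred lesions were part of how the transcripts were chosen, so these values are a description.

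Cre-control fragments in deficient recipients had 46.4, 46.7, 54.2 and 48.6 CPM of Cox7a2l, and deficient fragments in Cre-control recipients had 75.2, 70.0, 63.1 and 64.1. The first group lay above the deficient IL-33 libraries and below all Cre controls, and the second reached into the Cre-control range with 1 library. Gm6969 measured 23.3, 15.1, 15.6 and 11.1 CPM in Cre-control fragments in deficient recipients, and 1.01, 1.99, 5.35 and 5.07 in the reverse transfer. Gm7993 measured 7.30, 4.85, 4.26 and 4.04 CPM in the first group and 0.109, 0.704, 1.33 and 2.12 in the second. In both transcripts replicate 1 of each group reached or passed the range of its recipient's genotype, and the rest lay between the genotypes. Rps7-ps3 averaged 1.62 ± 0.471 and 0.718 ± 0.168 CPM, and Gm10557 6.64 ± 0.594 and 3.80 ± 0.551 (SD, n = 4 each). Ppp4r1l-ps averaged 34.0 ± 2.71 and 40.3 ± 3.59 CPM.

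Each library was also placed on a scale from 0% at the mean CPM of its fragment's genotype to 100% at that of its recipient's. Cox7a2l stood at 77.8% (63.3 to 85.0% over 4 libraries) in Cre-control fragments in deficient recipients and at 75.4% (61.6 to 95.1%) in the reverse transfer. Gm6969 stood at 80.7 ± 27.1% and 87.8 ± 11.5%. Over the 6 transcripts and both groups, the means ranged from 65.8 to 91.0%. Libraries under 50% were replicate 4 of the first group for Ppp4r1l-ps (29.3%) and Rps7-ps3 (37.7%), and replicate 1 of the second for Ppp4r1l-ps (43.0%). On the log2 scale Gm6969 and Gm7993 in deficient fragments came out lower, at 66.6 ± 26.5% and 54.2 ± 28.1%, with 2 of 4 libraries above 50%.

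**Figure D4:**
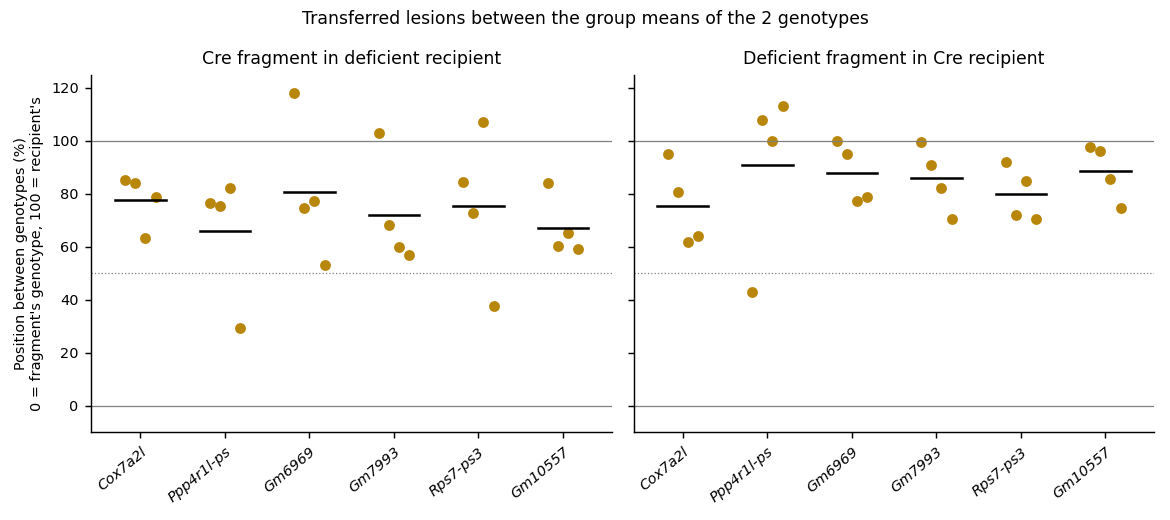
Position of each transferred lesion (points) between the mean CPM of its fragment's genotype (0%) and that of its recipient's (100%), for 6 transcripts, with the mean of 4 libraries as a black line. The 12 means lie between 65.8 and 91.0%, and 3 points lie below the dotted line at 50%.

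The tissue make-up of these lesions varied beside those values. Summed skeletal muscle markers measured 47338, 19199, 5771 and 15291 CPM in replicates 1 to 4 of the Cre-control fragments in deficient recipients. In the 4 deficient fragments in Cre-control recipients they measured 23471, 6770, 18984 and 1327 CPM. Replicate 1 was the highest of each group, and it was also the highest in Gm6969 in the first group and the lowest in the second, while the other replicates did not keep such an order. The 7 leukocyte markers ranged from 1527 to 3728 CPM in the first group and from 1890 to 3354 in the second, the 7 endometrial stroma markers from 1478 to 2163 and from 1315 to 1974, and the 4 mesothelium markers from 73.6 to 145 and from 142 to 252. The 8 endometrial epithelium markers ranged from 13.4 to 745 and from 46.8 to 215 CPM, and the 5 smooth muscle markers from 1196 to 6804 and from 2078 to 3624. None of these markers was at 0 in all libraries of either group. Liver markers reached 301 CPM in the first group and 0.459 in the second, where Ttr, Serpina1c and Fabp1 were at 0 throughout. The ILC2 markers summed to 14.1 to 33.8 CPM in deficient recipients and 44.8 to 127 in Cre-control recipients. The part of recipient cells in the levels of the 6 transcripts was not tested, and a bulk library cannot tell fewer cells of a type from less RNA per cell.

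Over the 16 libraries of the transfer set (2 fragment by 2 recipient genotypes), the recipient effect of Cox7a2l was -0.69 ± 0.07 (log2, SE) and the fragment effect -0.22 ± 0.07. For Gm6969 they were 3.25 ± 0.24 and 0.97 ± 0.22, and for Gm7993 4.38 ± 0.36 and 2.13 ± 0.34. Both effects had the same sign in all 6 transcripts, and the recipient effect was the larger in each. Levels between those of the 2 genotypes give both effects the same sign by arithmetic. The transcripts were chosen partly for such levels, so the shared sign describes the choice. How often the recipient effect is the larger over all genes is not given here. Among all 21249 genes, edgeR called 2403 (11.3%) for the recipient and 1 (0.00471%) for the fragment. That 1 gene, Gm7993, was chosen on its genotype difference and its levels in these lesions, so the call is no test of it.

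Among genes that were not chosen, Rps7 fell with a deficient recipient (log2 -0.70 ± 0.11, adjusted p = 0.000103). In the list of 11 strain-variable genes 3 rose and 0 fell with a deficient recipient (11.3% of all genes called, 5.02% higher and 6.29% lower): Wdfy1 (log2 0.55 ± 0.08, adjusted p = 2.78e-05) and the interferon-inducible Ifi203 (0.97 ± 0.21, adjusted p = 0.00291) and Mndal (0.76 ± 0.20, adjusted p = 0.0105). For the fragment 0 of these 11 were called. The recipient call of Mndal was lost in 1 of 22 alternatives, with only the groups compared. Of the 13 sequence relatives 3 rose (2610005L07Rik, 6820431F20Rik and Gm9260) and 2 fell (Gm21092 and Rps7) with a deficient recipient, and 0 were called for the fragment. The call of 6820431F20Rik was lost in 4 of 22 alternatives, without Cre-control replicate 2, Cre-control-fragment replicate 2, deficient-fragment replicate 3 or the libraries with liver transcripts. Of the 89 neighbours 5 rose and 8 fell with a deficient recipient, and 0 were called for the fragment. Those that rose were Gm38699, Rrm2, Zbp1, Fras1 and Cul2, and those that fell were 9030624G23Rik, Klf11, Kidins220, Ctsz, Gm42601, Gm42602, Gm8013 and Tspyl2. The calls of Klf11 and Kidins220 were lost in 5 and 4 of 22 alternatives, both without deficient replicate 2 or 4 or deficient-fragment replicate 2 and with only the groups compared, and Klf11 also without the libraries with liver transcripts. Of the 27 complex III and IV genes, edgeR called 0 for the recipient, where 6 had an unadjusted p under 0.05 and the median was 0.27 beside 0.01 over all genes. Closest to the threshold was Cox7b, a complex IV subunit (log2 0.52 ± 0.18, adjusted p = 0.0561). DESeq2 called 2 of the 27, Cox7b and Cycs, the gene for cytochrome c. Without the 4 libraries with liver transcripts edgeR called 3, Cox7b (adjusted p = 0.0231), Ndufa4 (0.0293) and Cox7a2 (0.0153), all higher. For the fragment 0 of the 27 were called, 0 had an unadjusted p under 0.05 and DESeq2 called 0. The recipient contrast shares its Cre-control and deficient libraries with the comparison of deficient and Cre-control lesions.

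Treatments were compared within 1 genotype. The 6 transcripts were chosen for separation of genotypes over all 11 groups, the treatment groups included, which favours transcripts that vary little within a genotype. The counts of 0 below are therefore not independent of the choice. None of the 5 contrasts called any of the 6 by edgeR. With IL-33 against PBS in deficient lesions 0 of 6 were called (0.00941% of all genes), 0 had an unadjusted p under 0.05 and DESeq2 called 0. Cox7a2l measured 36.3, 43.0, 40.5 and 38.3 CPM with PBS against 41.5, 35.4, 43.9 and 43.1 with IL-33, and the groups overlapped (log2 0.05 ± 0.10, 95% interval -0.15 to 0.26, adjusted p = 0.985). Gm6969 differed by log2 -0.02 ± 0.30 (-0.62 to 0.57, adjusted p = 0.997) and Gm7993 by 0.42 ± 0.42 (-0.40 to 1.24, adjusted p = 0.945). Of these 3 intervals that of Cox7a2l was the narrowest and that of Gm7993 the widest.

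The ILC2 transfers gave no call either. With 250000 ILC2s against added PBS in deficient lesions 0 of 6 were called (0% of all genes), 0 had an unadjusted p under 0.05 and DESeq2 called 0, with log2 0.13 ± 0.10 for Cox7a2l (-0.08 to 0.33, adjusted p = 0.699) and -0.22 ± 0.30 for Gm6969 (-0.82 to 0.38, adjusted p = 0.836). With 120000 ILC2s in deficient lesions, where 1 arm had 2 libraries, 0 of 6 were called (0% of all genes), 0 had an unadjusted p under 0.05 and DESeq2 called 0, and Cox7a2l differed by 0.08 ± 0.13 (-0.17 to 0.33, adjusted p = 1). In C57Bl/6J lesions the same dose gave 0 of 6 (0% of all genes), DESeq2 called 0, and 1 had an unadjusted p under 0.05, Rps7-ps3 (log2 0.56 ± 0.24, adjusted p = 0.999 by edgeR). The difference between the responses of the 2 genotypes to 120000 ILC2s was called for 0 of 6 (0% of all genes), and 1, Ppp4r1l-ps, had an unadjusted p under 0.05 (log2 0.33 ± 0.13, deficient minus C57Bl/6J, adjusted p = 1).

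Deficient lesions with PBS added to IL-33 were also set against those with IL-33 alone, since both share genotype and IL-33. Again 0 of 6 were called (0.0141% of all genes), and DESeq2 called 0. Ppp4r1l-ps had the lowest adjusted p of the treatment contrasts, with 33.4, 35.7, 34.6 and 36.1 CPM against 30.8, 29.2, 33.8 and 27.1 (log2 0.21 ± 0.08, 0.05 to 0.36, adjusted p = 0.194 by edgeR, and the only 1 of the 6 with an unadjusted p under 0.05). The 2 groups overlapped between 33.4 and 33.8 CPM.

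**Figure D5:**
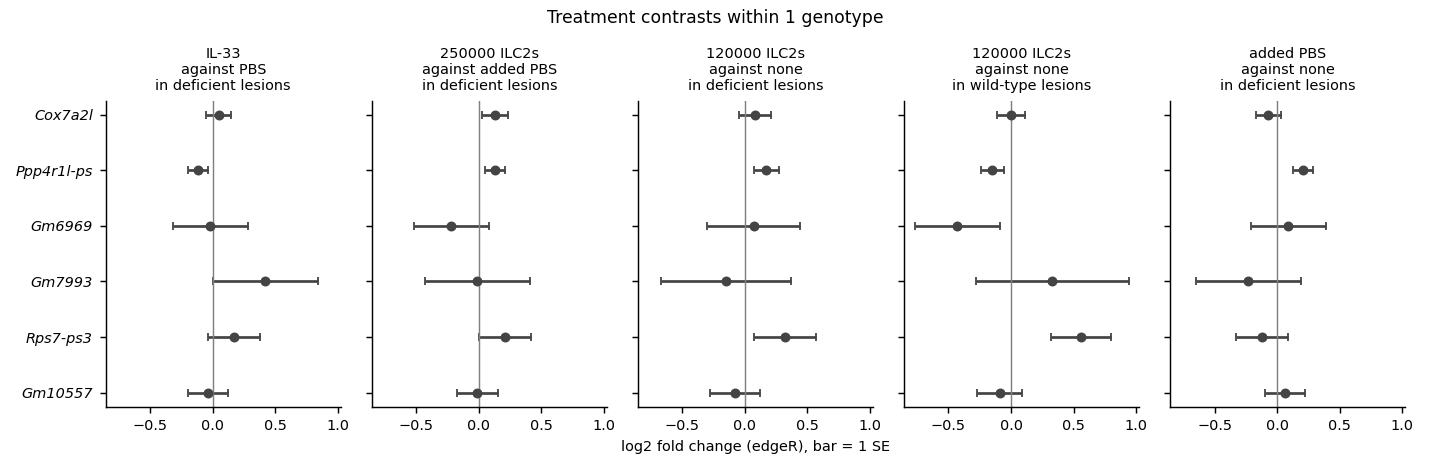
Log2 fold change from edgeR (points, with 1 SE as bars) of the 6 transcripts in 5 contrasts within 1 genotype. Cox7a2l stays between -0.07 and 0.13 in all 5, and the widest bars belong to Gm7993.

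Levels of the 6 transcripts were compared over the 41 libraries, which share the genotype groups used to choose them. Pearson's r of log2 CPM was 0.98 between Gm6969 and Gm7993, 0.90 to 0.95 among the other pairs of Gm6969, Gm7993, Rps7-ps3 and Gm10557, and -0.81 to -0.91 between these 4 and Cox7a2l. Ppp4r1l-ps was less alike, with 0.70 to Cox7a2l and -0.59 to -0.64 to the 4. Outside the 6, the genes most like Cox7a2l were Lrrc55 (r = -0.91), Gm38699 (-0.90), Gm48643 (-0.90), Cnppd1 (0.90) and Il13 (0.89), the last a cytokine of ILC2s. For Gm6969 they were Gm9077 and Gm48643 (both 0.94), for Gm7993 Gm9260 (0.95) and Gm4425 (0.94), for Rps7-ps3 Gm9260 and Gm9077 (both 0.93), and for Gm10557 Gm48643 (0.94) and 2610005L07Rik (0.93). All but the last lie on chromosome 12. For Ppp4r1l-ps they were Ankrd16 (0.89), on the same chromosome 2, and Tbc1d17 (0.86). The libraries share genotype groups and depth, so these correlations describe the grouping and carry no p.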

How the data were processed

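The authors deposited raw counts per gene for 41 libraries in 1 table. Trimmomatic, STAR, HTSeq, edgeR, limma and GRCm38 are named in the submitters' processing notes, with versions, options and strand setting not given in the sources used here. Per the labels' protocols, total RNA came from snap-frozen lesions and libraries from a NEBNext UltraExpress kit. Groups and replicate numbers follow the sample titles. The members and gene lists were chosen with earlier results of these data known.

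Levels are CPM on library sizes scaled by edgeR 4.0.16 (TMM). One robust quasi-likelihood model of 11 group means over 41 libraries gave all contrasts, two-sided, with Benjamini-Hochberg adjustment over 21249 genes at 0.05, and standard errors from the F statistics. No gene was filtered (0 removed by edgeR's default filter; the lowest total over libraries was 411 counts). The square root of the common dispersion was 0.465. Log2 levels used a prior count of 2. Sequences and positions came from GENCODE M21 on GRCm38, where 20985 symbols were placed, 210 of them through RefSeq synonyms, and relatives were found with blastn 2.17.0. The genes named beside the 6 are the nearest measured gene on each side, the best coding relative, the most alike by correlation (5 for Cox7a2l, 2 for the others) and members of the lists. Other genes were named after their values were seen. Alternatives were RLE size factors, DESeq2 1.42.0, a filter of at least 1 CPM in at least 4 libraries (18570 genes), only the groups compared, the replicate number as a block, each replicate left out, and, added after seeing the data, no libraries with liver transcripts, sums of parent and copy, and transferred lesions grouped by recipient or fragment. The fitting script was tested on simulated data.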

Additional observations from a re-analysis of the deposited data

Results flagged for a closer look

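The highest or lowest library of a group of 4 was checked against its neighbour for the 6 transcripts, in 54 groups, of which 4 stood apart; chance alone picks about 1 group in 20. Cox7a2l reached 77.8 CPM in replicate 4 of the C57Bl/6J IL-33 lesions, whose other libraries lay between 65.5 and 67.0 CPM, and Gm7993 reached 0.173 CPM in the same library against a lowest value of 0.0509. That library is 1 of the 4 with liver transcripts. Its Gm7993 value rests on 6 counts, against 2, 2 and 3 in replicates 1 to 3. Ppp4r1l-ps reached 38.0 CPM in replicate 4 of the Cre-control fragments in deficient recipients, above the others from 32.2 to 33.0. Gm6969 fell to 15.9 CPM in replicate 3 of the deficient lesions with 250000 ILC2s, below 18.8 to 19.3 in the others, and the same library had the highest Cox7a2l of that group at 54.5 CPM.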

How the results depend on the processing

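Under 402 alternative fits of the 30 treatment fold changes, 0 passed the threshold, and 26 changed sign without being called. The choice favoured transcripts that vary little within a genotype, and the main fit called at most 0.0141% of all genes in these contrasts. A count of 0 was therefore likely from the start. Group differences of the 6 transcripts between deficient, floxed and Cre-control lesions moved by less than the spread between replicates under RLE scaling, unscaled totals and without the 4 libraries with liver transcripts (54 values). Of 180 positions of transferred lesions 3 moved further than the SD of their 4 libraries. All were of deficient fragments on the log2 scale: Gm6969 to 66.6%, Gm7993 to 54.2% and Rps7-ps3 to 64.5%. Leaving out 1 of those 4 libraries cannot move their mean that far, so these alternatives among the 180 could not count as moved. Leaving out 1 library at a time kept Cox7a2l at 75.4 to 82.6% and 68.8 to 80.6%. The count of complex III and IV genes called for the recipient genotype, 0 of 27, became 2 with DESeq2, 1 with RLE size factors, 1 with the filter on low levels, 3 without the libraries with liver transcripts, and 0 to 2 when 1 library was left out; 2 came without Cre-control replicate 3, and 1 without Cre-control-fragment replicates 3 or 4 or deficient-fragment replicate 1. The cause was not tested. The counts of the 6 transcripts called in the 5 treatment contrasts, and of complex III and IV genes in the other 5 genotype contrasts, stayed at 0. Over all genes DESeq2 called 768 against 3 by edgeR for added PBS, 18 against 2 for IL-33, 14 against 0 for 250000 ILC2s, 9 against 0 and 3 against 0 for 120000 ILC2s in deficient and C57Bl/6J lesions, 1480 against 813 between deficient and Cre-control lesions, 228 against 70 between Cre-control and floxed, 175 against 8 between C57Bl/6J and Cre-control, and 13 against 1 for the fragment. Among 29 calls of other genes, 15 held under every alternative and the rest lost the call under at least 1, most often with only the groups compared. Rps7 held in all 3 contrasts. The 29 are calls of strain-variable genes, sequence relatives and the neighbours Klf11, Rrm2, Kidins220, 9030624G23Rik and Gm38699. Calls of the other neighbours named above, such as Ctsz and Mtpap, were not followed through the alternatives.

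With the replicate number as a block, 0 of 6 transcripts were called in each treatment contrast and 0 of 27 complex III and IV genes in each genotype contrast, as without it. Replicate numbers did not pair the libraries: in no contrast did every pair of equal numbers deviate together with a correlation over 0.1. In Cre controls depth limits Gm7993 most, which had 12 counts over 4 libraries. In deficient IL-33 lesions Rps7-ps3 had the fewest counts of the 6 (325, against 1150 for Gm7993). Gene counts without reads cannot separate a gene from its near copy.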
